A study of Mus musculus with 9 samples.

Results

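The genes described here are 43 components of autophagy and mitophagy in the mouse heart, listed by name from the pathway. The list was chosen with earlier results of these data known, so its counts beside those of all genes are not independent evidence. All 43 symbols were found among the 13890 genes of the counts, and all 43 passed the filter on low counts that left 13364 genes for testing. In autophagy a cell wraps part of its cytoplasm in a growing membrane, the phagophore, and closes it into an autophagosome that fuses with a lysosome, where the cargo is broken down. A kinase complex starts the process, a lipid kinase marks the membrane, and a pair of ubiquitin-like conjugation systems attaches proteins of the Atg8 family (LC3 and GABARAP) to it, to which cargo receptors bind. Mitophagy is the same process with mitochondria as cargo. Heart muscle cells are long-lived and rich in mitochondria, and they depend on both for the turnover of organelles and proteins. Transcript levels of these genes do not measure how much material passes through the pathway.

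The hearts came from male NSG mice, an immunodeficient strain that lacks T, B and natural killer cells and accepts human tumour cells. The mice were 8 weeks old at surgery, and their hearts were taken about 3 weeks later. In the sham group (S, animals 2, 3 and 5) saline was injected into the spleen and given weekly afterwards. The group labelled as hosts of HCT116 cells (T, animals 11, 12 and 15) received cells of this human colorectal cancer line in the spleen, from which they spread to the liver, and weekly saline. The treated hosts (A + T, animals 20, 21 and 22) received the same cells and weekly ACVR2B/Fc, a soluble form of the activin receptor ACVR2B fused to an antibody Fc part, which binds activins, myostatin and related ligands. All groups share the strain, the sex and the injection into the spleen, and each holds 3 animals, so that an exact permutation test of 1 gene cannot give a P-value under 0.1. Values per library are given below in the order of these animal numbers.

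A limit on the label T stands before all results. Relative to S, these libraries did not follow the list that the study gives for tumour hosts vs. sham, but the one it gives for ACVR2B/Fc without a tumour vs. sham. Whether the sample labels or the headings of those lists are at fault cannot be told apart here. The group is called T because its label says so, and every direction given for it rests on those 3 libraries. A + T vs. S is the comparison that contrasts none of them, although they share in the estimate of spread behind its P-values.

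The libraries held 12392222 to 19732471 counts, and the 43 genes had between 50 and 15072 counts in a library, so none was near the limit of detection. The ribosomal RNA gene Rn45s took 4.57% to 19.6% of a library's counts and varied within every group. Defining markers of heart muscle were high in all libraries, with a summed level of 6 markers of 55340 to 61067 CPM (counts divided by the library size and put on a common scale with edgeR's TMM method) in S, 45315 to 52961 in T and 38698 to 55843 in A + T. Of these 6, Tnnt2 and Pln were higher and Actc1 lower in T vs. S. Markers of some other cells differed between the groups, and the summed markers of the atrium varied widely between the animals of T. In T vs. S, 4 of 5 endothelial, 5 of 5 fibroblast and 4 of 4 smooth muscle and pericyte markers were lower. In A + T, 5 of 5 macrophage markers were higher than in S, while the endothelial marker Cdh5 and the smooth muscle markers Myh11 and Acta2 were lower. All 5 atrial markers had negative log2 fold changes in T and in A + T relative to S, of which Bmp10 in T was called, and they summed to 3000.1 to 3084 CPM in S, 861 to 4554 in T and 793 to 2055 in A + T. The endothelial markers summed to 733 to 861 CPM in S, 415 to 521 in T and 548 to 666 in A + T. In bulk tissue, fewer cells of a type and less RNA per cell cannot be told apart. Scgb1a1, a defining gene of airway cells, had 1345 counts in T animal 12 and 17508 in A + T animal 22, and 0 to 27 in the other libraries.

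The 250 bases upstream of the RefSeq start site are shown for Bnip3, Sqstm1, Atg13 and Optn, because these were the members that were higher in T vs. S and lower in A + T vs. T. All lie on the minus strand of GRCm38 (mm10), and each sequence is written from 5′ to 3′ of its gene and ends at the last base before the start. Capitals mark matches to any of the searched motifs CACGTG (E-box), ACGTG (its core, also that of the hypoxia response element), GTAAACA (forkhead) and TGACNNNGC (antioxidant response element core), on either strand. Bnip3 was read at chr7:138909507-138909756, Sqstm1 at chr11:50210821-50211070, Atg13 at chr2:91710593-91710842 and Optn at chr2:5064118-5064367.
Bnip3: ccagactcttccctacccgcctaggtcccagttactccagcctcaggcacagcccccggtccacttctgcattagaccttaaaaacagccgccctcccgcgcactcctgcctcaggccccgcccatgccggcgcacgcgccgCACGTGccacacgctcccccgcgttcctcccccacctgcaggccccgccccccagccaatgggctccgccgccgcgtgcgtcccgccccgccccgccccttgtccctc
Sqstm1: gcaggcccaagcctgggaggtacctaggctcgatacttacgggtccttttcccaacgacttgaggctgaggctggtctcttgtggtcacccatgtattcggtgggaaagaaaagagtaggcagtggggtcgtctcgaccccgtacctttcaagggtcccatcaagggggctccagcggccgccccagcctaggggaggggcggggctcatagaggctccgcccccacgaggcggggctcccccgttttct
Atg13: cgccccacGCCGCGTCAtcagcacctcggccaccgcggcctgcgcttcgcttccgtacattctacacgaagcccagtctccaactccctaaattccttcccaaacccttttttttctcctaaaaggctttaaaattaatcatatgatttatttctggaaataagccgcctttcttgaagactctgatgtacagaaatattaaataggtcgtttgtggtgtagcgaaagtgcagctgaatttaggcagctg
Optn: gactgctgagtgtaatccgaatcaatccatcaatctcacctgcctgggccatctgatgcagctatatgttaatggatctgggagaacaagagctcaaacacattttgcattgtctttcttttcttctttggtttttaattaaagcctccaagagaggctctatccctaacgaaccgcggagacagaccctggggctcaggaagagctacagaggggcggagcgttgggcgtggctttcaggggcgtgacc

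The window of Bnip3 held 1 E-box, whose letters hold the ACGTG core on both strands. The window of Atg13 held 1 match to the antioxidant response element core, on the minus strand of the printed sequence, and those of Sqstm1 and Optn held no match. RefSeq windows were found for 35 of the 43 genes. The E-box stood in 4 of these 35 (Atg3, Atg5, Atg7 and Bnip3) and in 6.02% of 32851 mouse windows of the same length. The ACGTG core stood in 13 of the 35 and in 16.6% of all windows, the forkhead motif in 0 of the 35 and in 3.17%, and the antioxidant response element core in 2 of the 35 (Ulk2 and Atg13) and in 10.2%. A gene was counted if any of its windows held a match, as for Atg4a and Nbr1, which also had a window without the ACGTG core. The percentages count every window singly, so the shares are not in the same unit. Of the 12 genes with a window that were higher in T vs. S, 2 held the E-box and 4 the ACGTG core. A match is a description of the letters and not of a bound site.

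The first question was how the pathway's transcripts in the hearts labelled T compare with sham. Bnip3, a mitophagy receptor of the outer mitochondrial membrane, was 2.37-fold the level in S, Gabarapl1 of the Atg8 family 2.02-fold, Atg13 of the starting kinase complex 1.81-fold and Sqstm1, the cargo receptor p62, 1.70-fold. All 5 Atg8 family genes were higher, while Atg4c, Atg4d, Atg5 and Tfeb were lower. With P-values adjusted over the 13364 genes by the Benjamini-Hochberg method, 13 of the 43 genes were called higher in T and 4 lower (adjusted P-value under 0.05 by edgeR's quasi-likelihood test). Of all genes tested 10.3% were higher and 11% lower. The median log2 fold change of the 43 genes was 0.17, with 32 above 0, against 0.00 for all genes. The 3 libraries of T and the 3 of S did not overlap for 24 of the 43 genes (55.8%), against 42.6% of all genes. When libraries were scaled by their totals alone, 5 of the 43 genes were higher and 2 lower. Of all 13364 genes, 585 were higher and 1051 lower at that scaling. The markers of vessels and fibroblasts named above fell in the same comparison, and their part in these differences was not tested.

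The second question was whether the A + T hearts differ from the libraries labelled T. None of the 43 genes was higher in A + T vs. T and 4 were lower, namely Atg13, Bnip3, Sqstm1 and Optn, which fell by 0.73, 0.70, 0.53 and 0.35 on the log2 scale. By edgeR at the adjusted threshold, 3.09% of all genes tested were higher and 2.79% lower. DESeq2 also called 0 of the 43 genes higher, with 5 lower, against 587 higher and 613 lower of all 13364 genes. At an unadjusted P-value under 0.05 by edgeR, 1 gene was higher (Atg4c) and 8 were lower. The share of all genes at that threshold is not given here. The median log2 fold change of the 43 genes was −0.12, with 9 above 0, against 0.01 for all genes. The groups did not overlap for 10 of the 43 genes and for 25.4% of all genes, so this count was at the level of the whole transcriptome. In the same comparison 4 of 5 macrophage markers, 3 of 5 fibroblast markers and the endothelial marker Cdh5 were higher, and their part in these differences was not tested. This comparison and T vs. S share the libraries labelled T, so a gene that is high in these moves up in the one and down in the other.

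In A + T vs. S, 3 genes were higher (Gabarapl1, Bnip3 and Gabarapl2) and 2 lower (Tfeb and Atg4d), against 4.67% and 3.64% of all genes. The median log2 fold change was 0.02, with 25 of the 43 genes above 0, and the groups did not overlap for 18 genes, against 32.4% of all genes. Here too cell markers differed, with 5 of 5 macrophage markers higher and Cdh5, Myh11 and Acta2 lower. Their part in these differences was not tested. The heat map of the 43 genes shows the 3 libraries labelled T as the columns with the strongest colours in the Atg13, Sqstm1 and Bnip3 rows.

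**Figure D1:**
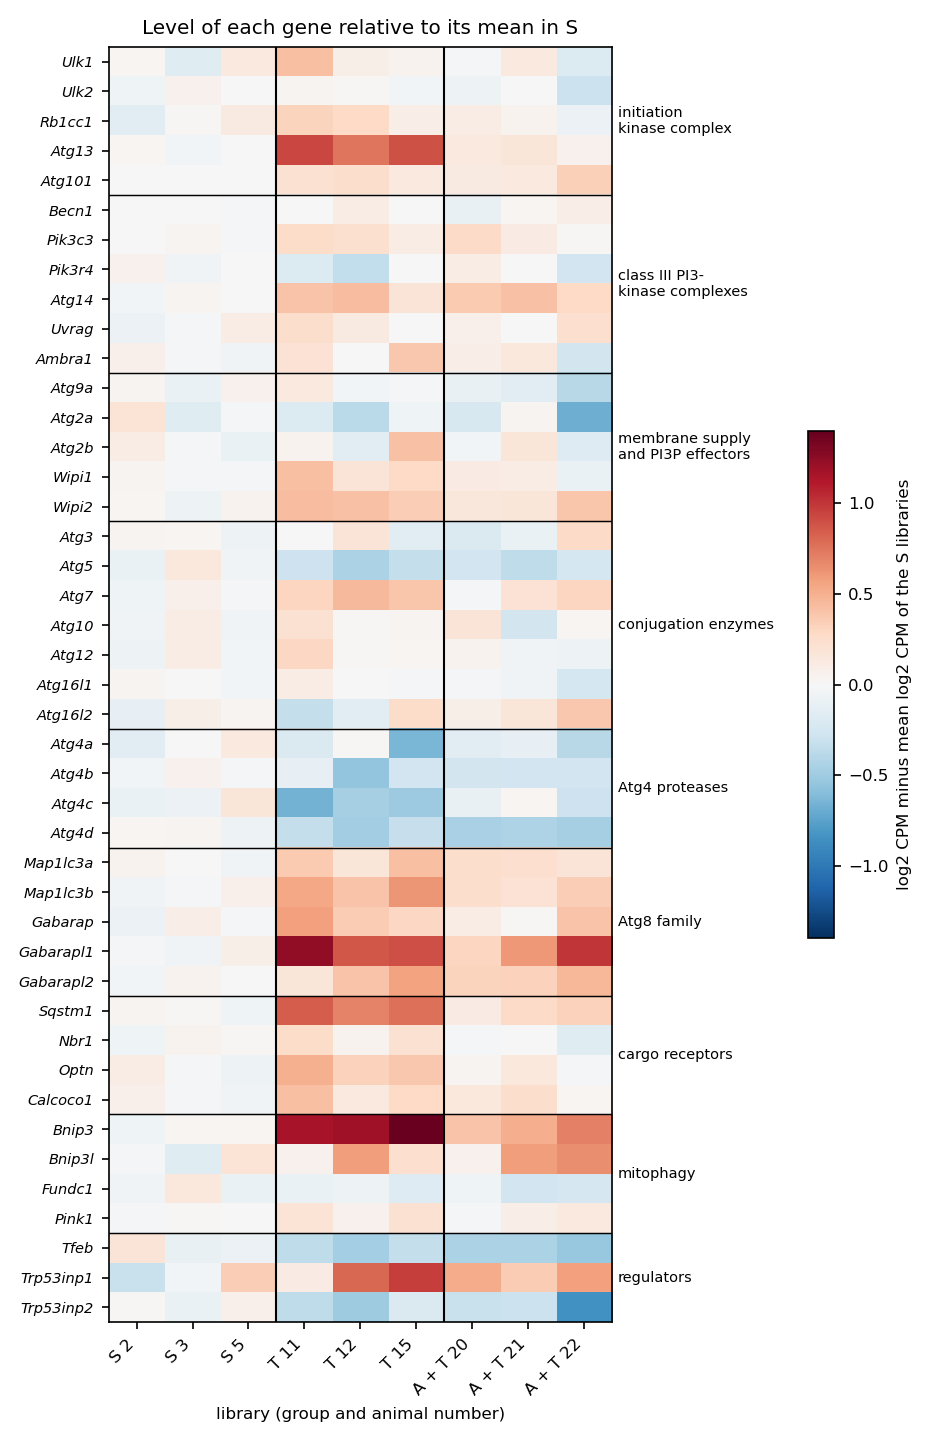
Heat map of the 43 genes (rows, grouped by role) in the 9 libraries (columns, by group and animal number). Colour gives log2 CPM minus the mean log2 CPM of the 3 S libraries of that gene. Bnip3, Gabarapl1, Atg13 and Sqstm1 are red in all 3 libraries labelled T, and the 4 Atg4 proteases and Tfeb are mostly blue in T and A + T.

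The ULK complex starts autophagy, and of its 5 genes only Atg13, the subunit that links the kinases to the scaffold protein, was called. Atg13 (chr2:91674618-91710576) had 103, 98.4 and 101 CPM in S, 193, 169 and 187 in T and 111, 113 and 105 in A + T. The lowest library labelled T was far above the highest of the other groups, and A + T lay just above S. The log2 fold change was 0.86 (standard error, SE, 0.08, adjusted P = 0.000115) in T vs. S, −0.73 (SE 0.07, adjusted P = 0.00248) in A + T vs. T and 0.12 (95% interval −0.04 to 0.29) in A + T vs. S. Both calls held with each animal left out. The other subunits were not called in any comparison. The kinases Ulk1 and Ulk2 had log2 fold changes of 0.19 and 0.00 in T vs. S, the scaffold Rb1cc1 (FIP200) 0.22 and Atg101, which binds Atg13, 0.20. A pseudogene close in sequence to Rb1cc1 makes its count less certain.

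The class III PI3-kinase complexes make the lipid PI3P on the phagophore. Of their 6 genes only Atg14, the subunit that directs the kinase to autophagy, was higher in T. Its levels were 13.3, 14.1 and 13.6 CPM in S, 18.03, 18.4 and 15.4 in T and 17.6, 18.2 and 16.5 in A + T, so that T and A + T lay above all S libraries. The log2 fold change was 0.34 in T vs. S (SE 0.10, adjusted P = 0.0303), 0.01 in A + T vs. T and 0.35 in A + T vs. S (adjusted P = 0.0511). The call was lost when S animal 2, 3 or 5 or T animal 11 or 12 was left out (adjusted P up to 0.0996). The kinase Pik3c3 (VPS34) had a log2 fold change in T vs. S of 0.19, Becn1 (Beclin 1) 0.04, Uvrag 0.13, Ambra1 0.20 and the regulatory subunit Pik3r4 −0.18, none of them called. Becn1 had 58.6 ± 0.679 CPM in S (mean ± SD, n = 3, as below), 60.2 ± 2.52 in T, and 58.98 ± 3.95 for the A + T hearts.

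Of 5 genes that supply membrane or read PI3P, 2 were called. Wipi1 and Wipi2, which bind PI3P on the phagophore, were higher in T vs. S, while Atg9a, the membrane protein of the vesicles that seed the phagophore, and the lipid transfer genes Atg2a and Atg2b were not called. Wipi2 had 43.3, 40.5 and 44.1 CPM in S, 57.6, 56.7 and 54.1 in T and 47.5, 48.1 and 55.6 in A + T, with T above S throughout. Its log2 fold change was 0.40 (SE 0.08, adjusted P = 0.00721) in T vs. S, −0.16 in A + T vs. T and 0.24 in A + T vs. S. Wipi1 had 141, 134 and 135 CPM in S, 183, 156 and 167 in T and 148, 147 and 129 in A + T, the last group overlapping S. Its log2 fold change was 0.30 in T vs. S (SE 0.09, adjusted P = 0.0336) and −0.25 in A + T vs. T (adjusted P = 0.114). The call for Wipi1 in T vs. S was lost without S animal 2, 3 or 5 or T animal 11 or 15 (adjusted P up to 0.123), whereas that for Wipi2 held without any animal. The log2 fold change in T vs. S was 0.02 for Atg9a, whose exons overlap another gene on the same strand, −0.22 for Atg2a and 0.11 for Atg2b.

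Among the conjugation enzymes, 2 of 7 genes were called in T vs. S, in opposite directions. Atg7, the activating enzyme of both conjugation systems, was higher. Atg5, which is joined to Atg12 in a complex that acts in attaching the Atg8 proteins to the membrane, was lower. Atg7 had 12.7, 13.96 and 13.2 CPM in S, 16.3, 18.1 and 17.3 in T and 13.05, 15.2 and 16.3 in A + T, and Atg5 had 21.95, 25.99 and 22.6 in S, 19.2, 17.2 and 18.6 in T and 19.4, 18.3 and 19.7 in A + T. Neither gene's T libraries overlapped S, and for Atg5 all A + T libraries also lay below S. The log2 fold change of Atg7 was 0.38 (SE 0.11, adjusted P = 0.0312) in T vs. S and −0.21 in A + T vs. T. That of Atg5 was −0.36 (SE 0.09, adjusted P = 0.0215) in T vs. S, 0.06 in A + T vs. T and −0.30 in A + T vs. S (adjusted P = 0.0754). Both calls rested on the full set of animals. That of Atg7 was lost without any 1 of the 6 animals of S and T (adjusted P up to 0.0975), and that of Atg5 without S animal 3 or T animal 12 or 15 (up to 0.0872). The conjugating enzymes Atg3 and Atg10, the ubiquitin-like Atg12, and Atg16l1, which places the complex on the membrane, had log2 fold changes of 0.02, 0.09, 0.12 and 0.03 in T vs. S, and Atg16l2, a relative of Atg16l1, −0.07.

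The Atg4 proteases, which trim the Atg8 proteins before conjugation and release them from membranes, all had negative log2 fold changes in T vs. S and in A + T vs. S. Atg4d had 55.4, 55.8 and 51.7 CPM in S, 43.1, 38.8 and 43.4 in T and 39.6, 40.2 and 39.2 in A + T. All 6 libraries of T and A + T lay below all of S, and the A + T libraries lay close together. The log2 fold change of Atg4d was −0.38 (SE 0.07, adjusted P = 0.00513) in T vs. S, −0.07 in A + T vs. T and −0.45 (SE 0.07, adjusted P = 0.00769) in A + T vs. S, and no animal left out ended either call. Atg4c, the gene with the fewest counts here, had 6.25, 6.29 and 7.45 CPM in S, 4.21, 4.82 and 4.68 in T and 6.18, 6.75 and 5.42 in A + T. It was low in T alone, with a log2 fold change of −0.54 (SE 0.15, adjusted P = 0.0295) in T vs. S and 0.42 (adjusted P = 0.136) in A + T vs. T. The call was lost without any 1 of the animals of S and T (adjusted P up to 0.1). Atg4b, the main protease for LC3, had a log2 fold change in T vs. S of −0.30 (adjusted P = 0.072) and Atg4a −0.24 (adjusted P = 0.352). A near-identical copy of Atg4a makes its count uncertain.

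All 5 genes of the Atg8 family were higher in T vs. S, and Gabarapl1 and Gabarapl2 were also higher in A + T vs. S. The proteins are attached to the phagophore, where the LC3 branch (Map1lc3a and Map1lc3b) and the GABARAP branch (Gabarap, Gabarapl1 and Gabarapl2) recruit cargo and help in closure and fusion. Gabarapl1 (chr6:129533160-129542346) had 120.5, 119 and 130.0 CPM in S, 289.9, 225 and 229 in T and 151, 188 and 246 in A + T. T lay above S without overlap, and A + T ranged from just above S to within T. The log2 fold change of Gabarapl1 was 1.01 (SE 0.16, adjusted P = 0.00217) in T vs. S, −0.35 (95% interval −0.71 to 0.01, adjusted P = 0.23) in A + T vs. T and 0.66 (SE 0.16, adjusted P = 0.0336) in A + T vs. S. The highest A + T value was that of animal 22, the library with the most Scgb1a1. Without it Gabarapl1 was called lower in A + T vs. T and was no longer called in A + T vs. S, which also failed without A + T animal 21 or S animal 2, 3 or 5 (adjusted P up to 0.116).

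Map1lc3b, which encodes the LC3B used as the standard marker of autophagosomes, had 180.0, 182 and 195 CPM in S, 269.9, 244 and 285 in T and 219.7, 214 and 236 in A + T. The 3 groups did not overlap, with A + T in the middle. Its log2 fold change was 0.52 (SE 0.08, adjusted P = 0.00218) in T vs. S, which held without any animal, −0.25 in A + T vs. T (adjusted P = 0.102) and 0.27 in A + T vs. S (adjusted P = 0.0757). DESeq2 called Map1lc3b lower in A + T vs. T and higher in A + T vs. S. Map1lc3a had 356, 342 and 332 CPM in S, 442, 387 and 459 in T and 407, 403 and 389.9 in A + T, and its log2 fold change in T vs. S was 0.32 (SE 0.08, adjusted P = 0.0213). T and A + T lay above S for this gene too, although the A + T vs. S difference of 0.22 was not called (adjusted P = 0.129). Gabarap had 236, 267 and 246 CPM in S, 373, 320.2 and 306 in T and 267, 252 and 329 in A + T, with a log2 fold change in T vs. S of 0.41 (SE 0.12, adjusted P = 0.0297).

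For Gabarapl2, the means of T and A + T were close. It had 33.5, 35.7 and 34.4 CPM in S, 38.7, 45.5 and 50.9 in T and 42.8, 43.1 and 47.6 in A + T. The log2 fold change was 0.38 (SE 0.10, adjusted P = 0.0228) in T vs. S, −0.01 (95% interval −0.24 to 0.21) in A + T vs. T and 0.37 (SE 0.10, adjusted P = 0.0499) in A + T vs. S, at the threshold. The A + T vs. S call held only when T animal 11 or 15 was left out (adjusted P up to 0.152 otherwise). In T vs. S, the call of Gabarapl2 was lost without S animal 2, 3 or 5 or T animal 12 or 15 (adjusted P up to 0.0755), that of Gabarap without S animal 2, 3 or 5 or T animal 11 (up to 0.113) and that of Map1lc3a without S animal 3 or 5 or T animal 11 or 15 (up to 0.0822). Processed pseudogenes at least 95% identical over 200 or more bases exist for Map1lc3b (4) and Gabarapl2 (3), and only uniquely mapped reads were counted, so their counts are uncertain to that extent.

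**Figure D2:**
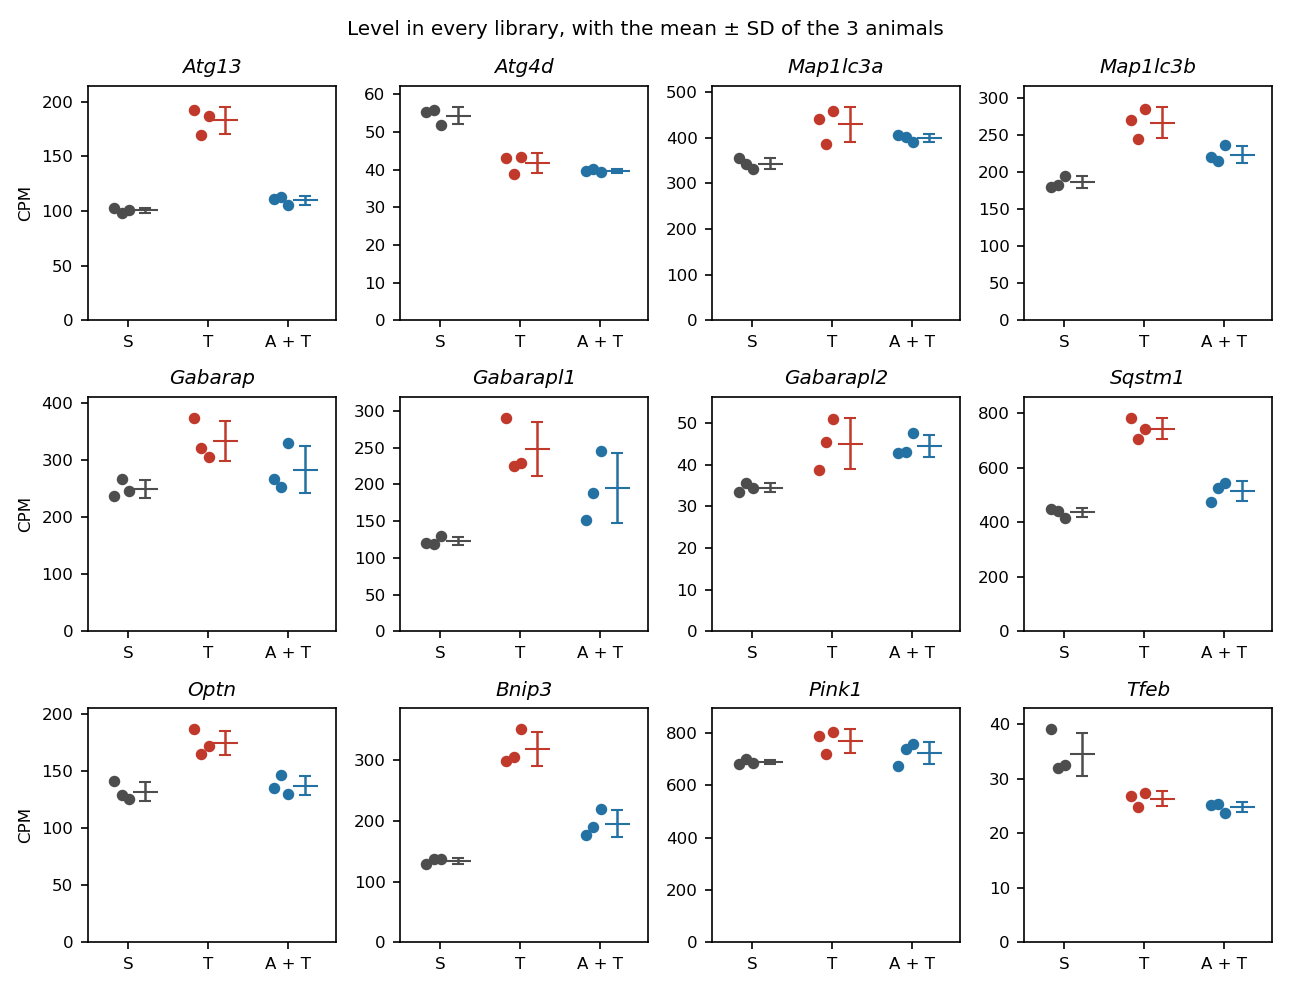
Level (CPM, linear axis from 0) of 12 of the genes in each of the 9 libraries, by group, with the mean ± SD of the 3 animals beside the points. Bnip3, Sqstm1 and Atg13 in T lie above all other libraries, Atg4d and Tfeb are lower in T and A + T than in S, and Pink1 differs little between the groups.

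Cargo receptors link tagged cargo to the Atg8 proteins. Of 4 genes, Sqstm1 and Optn were higher in T vs. S and lower in A + T vs. T. Sqstm1 (chr11:50199366-50210827), which encodes p62, had 449, 443 and 417 CPM in S, 782, 705 and 743 in T and 474, 525 and 546 in A + T. T stood apart from all other libraries, and A + T remained above S without overlap. The log2 fold change was 0.77 (SE 0.09, adjusted P = 0.000322) in T vs. S, −0.53 (SE 0.08, adjusted P = 0.00868) in A + T vs. T and 0.24 (adjusted P = 0.109) in A + T vs. S. DESeq2 called Sqstm1 higher in A + T vs. S. The A + T vs. T call was lost when T animal 11 was left out (adjusted P = 0.0516), and the T vs. S call held without any animal.

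Optn (chr2:5020642-5064051), optineurin, a receptor for bacteria, protein aggregates and damaged mitochondria, had 142, 129.5 and 126 CPM in S, 187, 166 and 172 in T and 135, 147 and 130.5 in A + T. A + T overlapped S and lay below T. The log2 fold change was 0.40 (SE 0.08, adjusted P = 0.0074) in T vs. S, −0.35 (SE 0.08, adjusted P = 0.039) in A + T vs. T and 0.06 (95% interval −0.13 to 0.24) in A + T vs. S. The A + T vs. T call was lost without any 1 of the 9 animals (adjusted P up to 0.149), and the T vs. S call held without each. Nbr1, a receptor that works with p62, and Calcoco1, a receptor of the endoplasmic reticulum and Golgi, were not called by edgeR in any comparison, with log2 fold changes of 0.17 and 0.28 in T vs. S (adjusted P = 0.165 and 0.0574). DESeq2 called Calcoco1 higher in T vs. S.

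Of 4 mitophagy genes, Bnip3 was higher in T vs. S and lower in A + T vs. T. Bnip3, whose promoter is a textbook target of hypoxia-inducible factor and whose protein binds LC3 from the mitochondrial surface, had the highest log2 fold change of the 43 genes in T vs. S, while Pink1 and Fundc1 were not called in any comparison. Bnip3 (chr7:138890836-138909519) had 129, 137 and 137 CPM in S, 298, 305 and 350.3 in T and 176, 190.1 and 219 in A + T. The 3 groups did not overlap, and A + T lay between S and T. The log2 fold change was 1.25 (SE 0.10, adjusted P = 8.89e-05) in T vs. S, −0.70 (SE 0.10, adjusted P = 0.00609) in A + T vs. T and 0.54 (SE 0.10, adjusted P = 0.0118) in A + T vs. S. The first 2 calls held without any animal, and the third was lost without S animal 2 or 3 (adjusted P up to 0.0598). Bnip3 has 3 pseudogene copies of at least 95% identity, so its counts are uncertain to the extent that reads are shared with them. Bnip3l (NIX), its close relative, had 68.5, 61.9 and 79.8 CPM in S, 72.4, 105 and 81.96 in T and 72.5, 105 and 109 in A + T. The groups overlapped, and the 95% interval of the log2 fold change was −0.08 to 0.69 in T vs. S and 0.06 to 0.84 in A + T vs. S (adjusted P = 0.243 and 0.135). A pseudogene copy that is 99.4% identical over 1131 bases makes the count of Bnip3l uncertain too.

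Pink1, the kinase that builds up on damaged mitochondria, had 682, 699.5 and 686 CPM in S, 788, 718 and 802 in T and 676, 738 and 759 in A + T. The T libraries all lay above S by a small margin, and the 95% interval of the log2 fold change was −0.02 to 0.34 in T vs. S and −0.27 to 0.09 in A + T vs. T, so a change as large as that of Bnip3 lay outside both. Fundc1, a receptor of the outer membrane active in hypoxia, had 27.3, 31.2 and 26.5 CPM in S, 26.5, 26.9 and 24.9 in T and 27.03, 23.5 and 24.03 in A + T. Its groups overlapped in every comparison, and its log2 fold change was −0.12 in T vs. S (95% interval −0.32 to 0.09).

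Of the 3 regulators, Tfeb was lower in T and in A + T than in S. Tfeb (chr17:47737030-47792419), the transcription factor that drives lysosomal and autophagy genes, had 39.04, 31.9 and 32.5 CPM in S, 26.8, 24.7 and 27.3 in T and 25.2, 25.3 and 23.7 in A + T. Every library of T and A + T lay below every S library. The log2 fold change was −0.39 (SE 0.09, adjusted P = 0.0153) in T vs. S, −0.09 (95% interval −0.30 to 0.13) in A + T vs. T and −0.48 (SE 0.09, adjusted P = 0.015) in A + T vs. S. S animal 2 was the highest of the 9 libraries, and without it neither call passed (adjusted P up to 0.0605 and 0.0621), and the T vs. S call was also lost without T animal 12. Trp53inp1, a p53 target whose protein binds LC3, had a log2 fold change in T vs. S of 0.65 with a wide 95% interval (0.18 to 1.12, adjusted P = 0.0527), and Trp53inp2 (DOR), which shuttles LC3 out of the nucleus, one of −0.35 (adjusted P = 0.11). These relatives had estimates of opposite sign in T vs. S, neither of them called by edgeR, whereas DESeq2 called Trp53inp1 in T vs. S and Trp53inp2 in A + T vs. S.

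**Figure D3:**
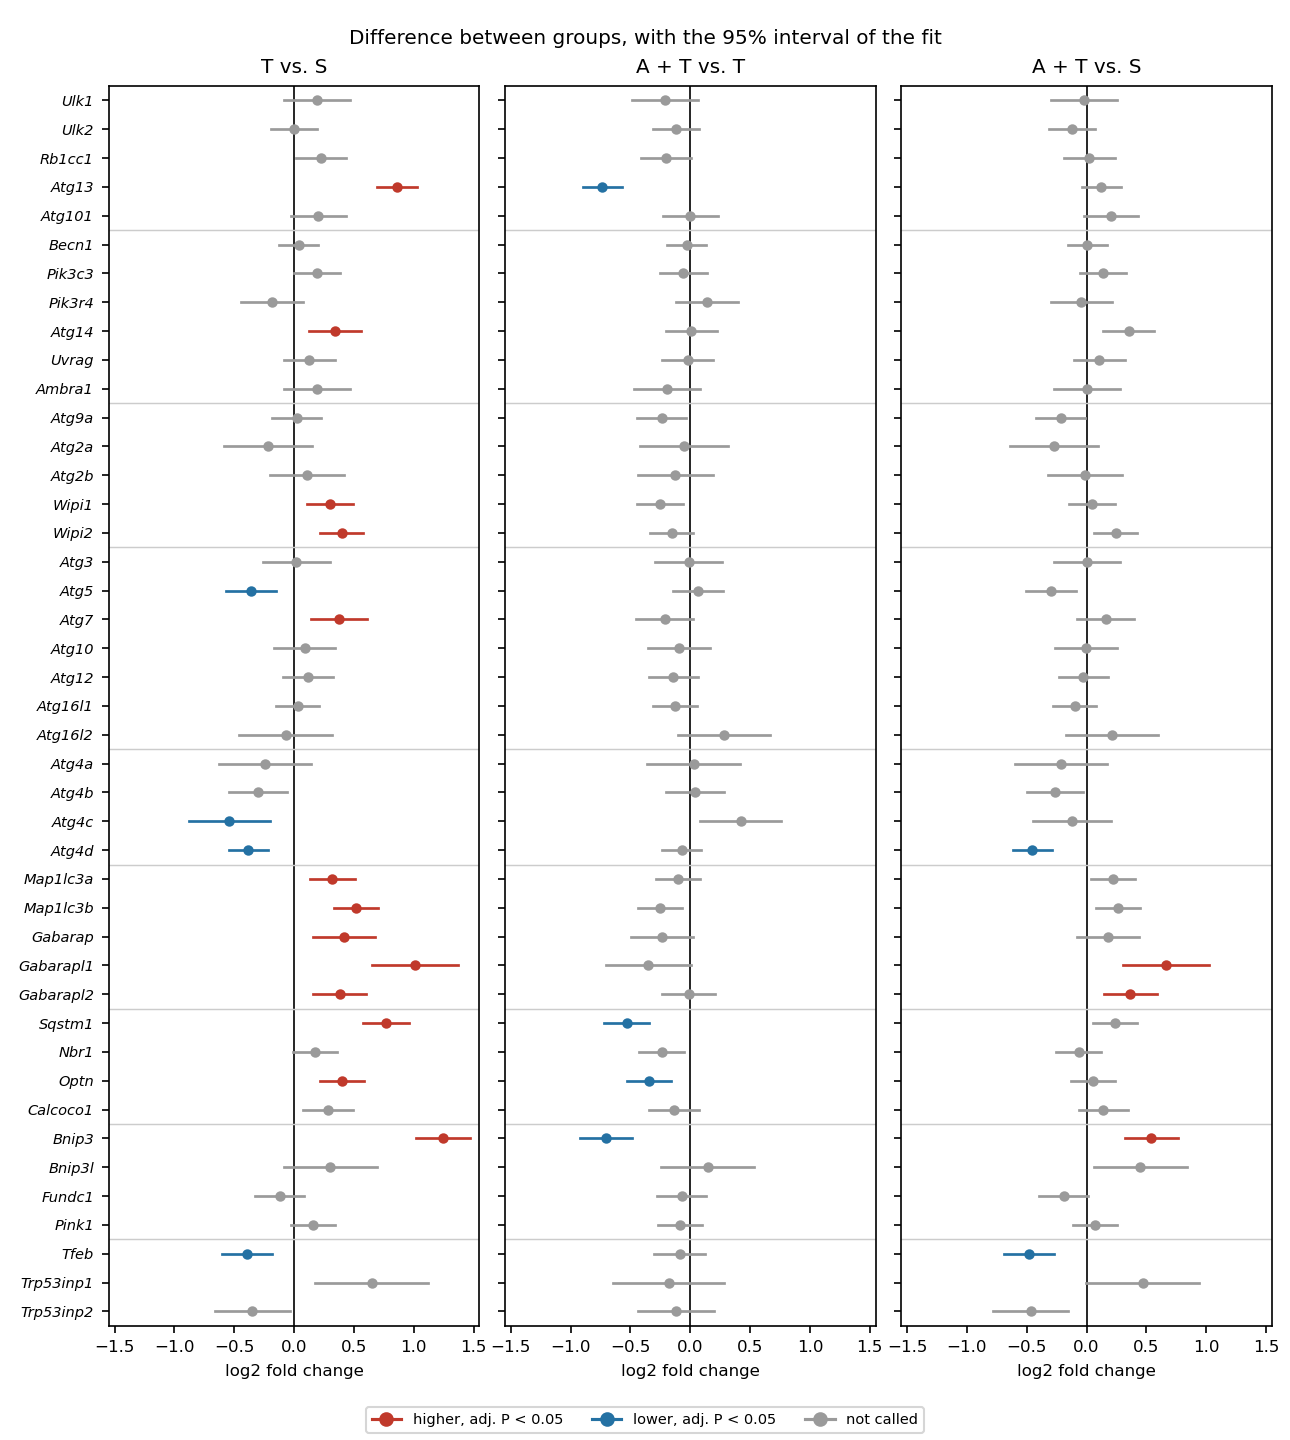
Log2 fold change (points) with its 95% interval (lines) for the 43 genes in the 3 comparisons, from edgeR's quasi-likelihood fit of all 9 libraries. Red marks genes called higher and blue genes called lower (adjusted P-value under 0.05), which number 13 and 4, 0 and 4, and 3 and 2 in the 3 panels, and grey marks the others.

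Members that share a step also differed in level. To compare genes, the deposited log2 values, which are scaled by library and by gene length, were used here. In S, 35 of the 43 genes lay above the median gene of the heart (2.56 on this scale), and the genes spanned 7.27 log2 units. Map1lc3a was the highest at 8.35 ± 0.05, followed by Pink1 at 8.18 ± 0.02, a gap larger than their SDs. Gabarap (7.79 ± 0.09), Sqstm1 (7.74 ± 0.06) and Trp53inp2 (7.68 ± 0.08) came next, and neighbours in this order differed by less than the larger of their SDs. The lowest were Atg7 (1.72 ± 0.07), Atg16l2 (1.48 ± 0.10) and Atg4c (1.08 ± 0.14). All 5 Atg8 family genes and all 4 cargo receptors ranked among the first 13 of the 43.

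The order shifted with the differences described above. In the libraries labelled T, Sqstm1 reached 8.51 ± 0.08, above Pink1 at 8.34 ± 0.09 and close to Map1lc3a at 8.67 ± 0.13. Gabarapl1 had 6.11 ± 0.07 in S, below Map1lc3b at 6.75 ± 0.06, and 7.11 ± 0.21 in T, where it no longer differed from Map1lc3b (7.27 ± 0.11) beyond the SDs. Bnip3 moved from 6.25 ± 0.05 in S to 7.49 ± 0.13 in T and 6.78 ± 0.16 in A + T, whereas Bnip3l had 4.42 ± 0.18, 4.72 ± 0.27 and 4.85 ± 0.32.

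**Figure D4:**
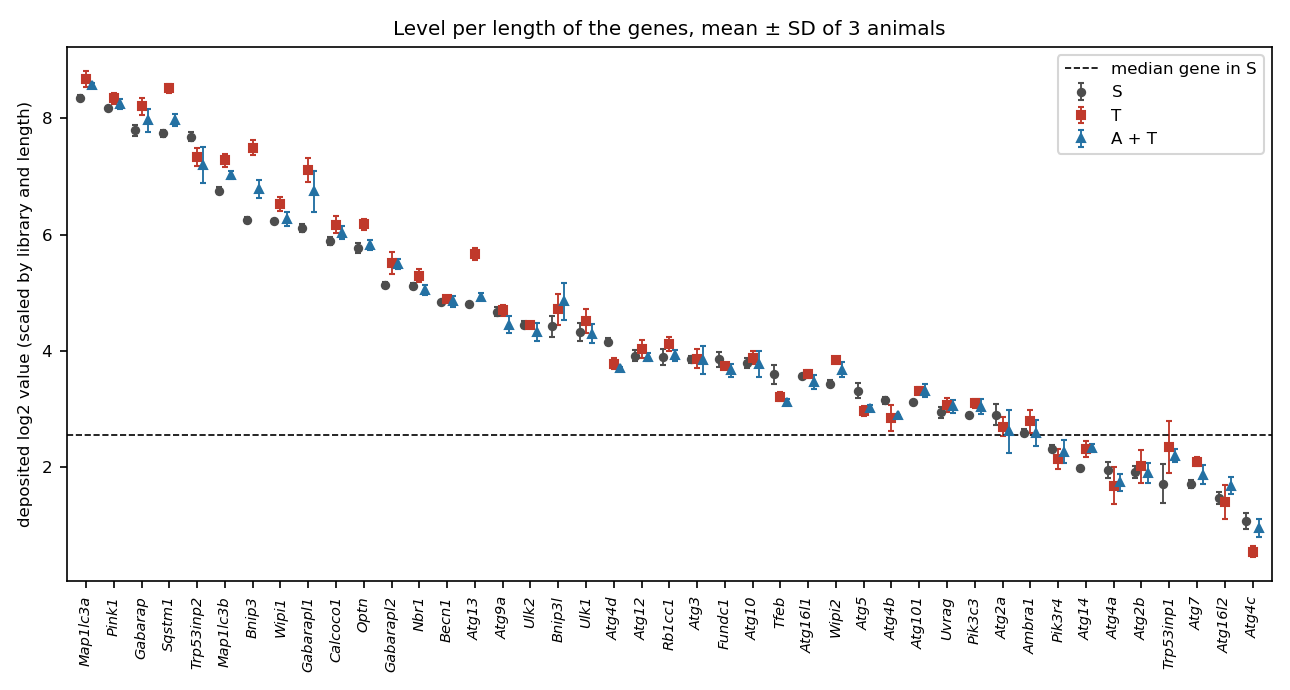
Level of the 43 genes as the deposited log2 value (scaled by library and gene length), mean ± SD of 3 animals in S, T and A + T, ordered by the level in S. The dashed line is the median of all genes tested in S (2.56), and 35 of the 43 genes lie above it.

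Other genes of the pathway, 96 in 6 lists, were set beside these. In T vs. S, 14 were higher and 1 lower, where 10.3% and 11% of all genes were. In A + T vs. T, 1 was higher and 1 lower (3.09% and 2.79% of all genes), and in A + T vs. S 3 were higher and 0 lower, against 4.67% and 3.64% of all genes. By DESeq2, 5 were higher and 2 lower in A + T vs. S, against 815 and 696 of all 13364 genes. At an unadjusted P-value under 0.05 by edgeR these were 9 and 6, and the share of all genes at that threshold is not given here. The median log2 fold changes of the 96 genes were 0.09, −0.09 and 0.00. Of the 12 receptors for other cargo, 3 were higher in T vs. S, led by Fam134b (now Retreg1), the receptor that delivers sheets of endoplasmic reticulum. Fam134b had 265, 349 and 391 CPM in S, 845, 799 and 757 in T and 631, 697 and 641 in A + T. Its level in T and A + T was above every S library, with a log2 fold change of 1.26 (SE 0.13, adjusted P = 0.000232) in T vs. S and 0.97 (SE 0.13, adjusted P = 0.00354) in A + T vs. S. Ccpg1, another receptor of the endoplasmic reticulum, had a log2 fold change in T vs. S of 0.35 (adjusted P = 0.00732).

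Of 23 upstream kinases and nutrient sensors, 5 were higher in T vs. S, against 10.3% of all genes, among them Sesn1, an inhibitor of mTORC1, at 0.58 on the log2 scale (adjusted P = 0.0076) and Fnip1, a partner of folliculin, at 0.49 (adjusted P = 0.00887). Stk11 (LKB1), which activates AMPK, was higher in T vs. S by 0.29 (adjusted P = 0.0188) and lower in A + T vs. T, with a log2 fold change of −0.29 (adjusted P = 0.0467). The first call was lost without S animal 2, 3 or 5 or T animal 11 (adjusted P up to 0.0717), and the second held only when T animal 12 or A + T animal 22 was left out (up to 0.166 otherwise). Of 10 transcription factors, Hif1a, the oxygen-regulated subunit of hypoxia-inducible factor, was higher in T vs. S by 0.37 (adjusted P = 0.0112) and Foxo3, which drives atrophy and autophagy genes, by 0.44 (adjusted P = 0.0462). The Foxo3 level of T animal 15 lay within S, and the call was lost with limma and held only when T animal 15 or A + T animal 22 was left out (adjusted P up to 0.155 otherwise).

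Of 15 other phagophore genes, 3 were higher in T vs. S and 1 lower. Bcl2l1 (BCL-XL), which binds Beclin 1 and restrains both autophagy and cell death, had 29.6, 23.3 and 27.2 CPM in S, 56.4, 77.8 and 42.6 in T and 25.4, 29.8 and 45.3 in A + T. T lay above S but spread widely, with a log2 fold change of 1.15 (SE 0.24, adjusted P = 0.00768). Snx18, a membrane-bending protein, was lower in T vs. S (−0.45, adjusted P = 0.00296) and higher in A + T vs. T (0.40, adjusted P = 0.0186), the latter lost without T animal 11 or A + T animal 20 or 21 (adjusted P up to 0.0852). Wdr45 (WIPI4) and the PI3P phosphatase Mtmr14 were higher in T vs. S by 0.33 and 0.46 on the log2 scale (adjusted P = 0.0421 and 0.0147). These T vs. S calls held in 2 and 6 of the 9 fits with 1 animal left out. Both genes were also higher in A + T vs. S, by 0.38 and 0.40 (adjusted P = 0.0479 and 0.0499). In A + T vs. T they had 0.05 and −0.06 and were not called. Each A + T vs. S call held for only 1 of the 9 animals left out (adjusted P up to 0.162 and 0.163). These were A + T animal 20 for Wdr45 and T animal 15 for Mtmr14.

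Of 16 genes of fusion with lysosomes, 1 was called higher in T vs. S, Lamp2. It encodes a lysosomal membrane protein whose loss causes autophagic vacuoles in heart muscle. It had 229, 261 and 269.7 CPM in S, 346, 388 and 367 in T and 326, 297 and 269 in A + T, with T above all S libraries, and a log2 fold change of 0.53 (SE 0.10, adjusted P = 0.00413) in T vs. S. None of 20 other genes of mitophagy and mitochondrial dynamics, among them Mfn1, Mfn2, Opa1 and Dnm1l, was called by edgeR's quasi-likelihood test in any comparison. By the same test, 3 had an unadjusted P-value under 0.05 in T vs. S, 4 in A + T vs. T and 2 in A + T vs. S. The share of all genes at that threshold is not given here, so these counts have no background beside them. DESeq2 called 2 of the 20 genes higher in T vs. S, 0 in A + T vs. T and 1 lower in A + T vs. S. Of all 13364 genes it called 1485 higher in the first and 696 lower in the last.

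**Figure D5:**
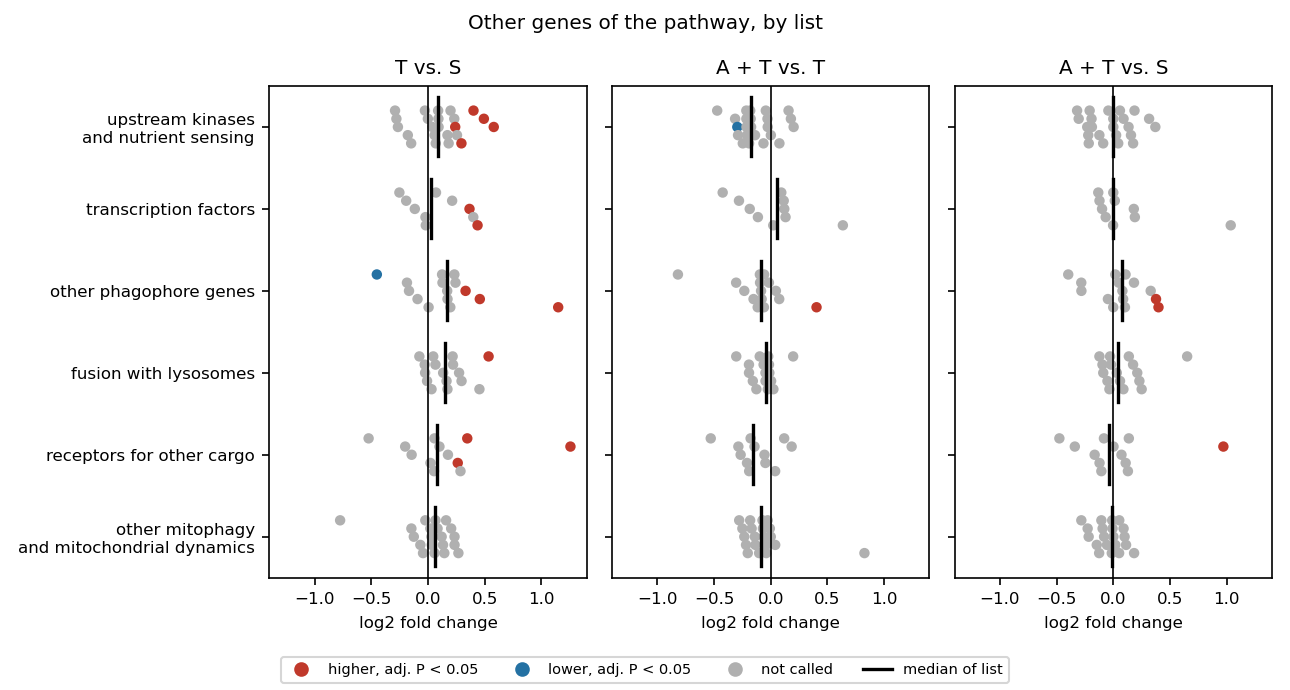
Log2 fold change of the 96 other pathway genes in the 3 comparisons, by list, with the median of each list as a black bar. Red and blue points were called higher and lower (adjusted P-value under 0.05). Fam134b is the red point furthest to the right in the receptor list both in T vs. S and in A + T vs. S, and no gene of the mitochondrial list is coloured.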

How the data were processed

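Heart mRNA of 9 male NSG mice was analysed, grouped as S, T and A + T by the sample labels. Per the labels and the methods, the authors checked reads with FastQC, aligned them to mm10 with STAR and assigned uniquely mapped, strand-matched read pairs to RefSeq genes with featureCounts, and the labels also name edgeR, all without versions. The deposited counts per gene are not normalized. A further table deposited by the authors holds log2 values. Their difference from the log2 CPM computed here was constant over libraries for each gene (median SD 0.000603 over the 8489 genes that had 100 counts or more in each library), as for values scaled by library and gene length. They served to compare levels between genes and in 1 alternative.

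The filter of the study was kept, which drops a gene once more than 4 libraries have a CPM under 0.5, and 526 of 13890 genes were dropped. The rest were fitted with edgeR 4.0.16 (R 4.3.3), TMM scaling and the quasi-likelihood test, all 9 libraries together, with Benjamini-Hochberg adjustment over 13364 genes. Standard errors are the log2 fold change over the square root of F. CPM printed per library are TMM-scaled. The steps were tested on simulated data. Alternatives were DESeq2 1.42.0, limma 3.58.1 (voom and the deposited values), other scalings, filters and thresholds, and each animal left out. Leaving out animals 12 and 22 together was added after the data had been seen. Near-identical copies were sought with BLAST 2.17.0 in GENCODE M21 transcripts, which also gave gene positions on GRCm38, and upstream windows are RefSeq's for GRCm38.p6. Python 3.11.15 and matplotlib 3.10.9 were used for tables and figures.

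Members and lists were chosen with earlier results of these data known, so no list is independent evidence. The result of 1 gene of the pathway is not reported here. Named with values are the members called in at least 1 comparison, all genes of the Atg8 family and the mitophagy group, and, among the genes called in each other list and comparison, those with the 2 smallest adjusted P-values. The labels number separate animals. Reads carried no molecular identifiers, and a total of 12392222 to 19732471 counts per library limits precision by counting error only for the lowest genes.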

Additional observations from a re-analysis of the deposited data

How the results depend on the processing

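For 20 members and 12 other pathway genes named with values, 1824 log2 fold changes were recomputed, of which 1640 stayed on the same side of the threshold, 160 lost it and 24 passed it. No called difference changed direction, whereas uncalled values near 0 changed sign for Atg14 (5 of 19 settings), Gabarapl2 (5), Atg5 (1), Wdr45 (2) and Mtmr14 (1) in A + T vs. T, and for Stk11 (6), Foxo3 (3) and Snx18 (2) in A + T vs. S. The 17 members called in T vs. S numbered 7 with library totals only and 5 at the study's thresholds, and 9 to 20 with each animal left out. The 4 called in A + T vs. T numbered 2 with library totals only and 2 at the study's thresholds, and 2 to 4 with animals left out. The 5 called in A + T vs. S numbered 2 with library totals only, 8 with DESeq2, 1 at the study's thresholds and 10 at an adjusted P-value under 0.1, and 1 to 6 with animals left out. The 15 other pathway genes of T vs. S numbered 3 with library totals only, 2 at the study's thresholds, 24 at an adjusted P-value under 0.1, 23 without animals 12 and 22, and 8 to 22 with animals left out. The 2 of A + T vs. T numbered 0 with library totals only or only the groups compared, 1 with upper-quartile scaling or the study's thresholds, 7 with DESeq2, 5 at an adjusted P-value under 0.1, 4 without animals 12 and 22, and 0 to 4 with animals left out. The 3 of A + T vs. S numbered 1 with library totals only, 7 with DESeq2 and 9 at an adjusted P-value under 0.1, and 1 to 3 with animals left out. The cause of these shifts was not tested, beyond the smaller number of animals when some are left out. Calls over all genes tested moved too. In T vs. S, 1371 higher and 1467 lower became 585 and 1051 with library totals only and 1485 and 1473 with DESeq2. In the same order, 413 and 373 became 314 and 124, then 587 and 613 in A + T vs. T. In A + T vs. S, 624 and 486 became 324 and 231, then 815 and 696. Counts of all genes at the other thresholds are not given here. With 1 animal left out, calls over all genes ranged over 872 to 1924 higher and 884 to 1862 lower in T vs. S. These ranges were 54 to 512 and 76 to 494 in A + T vs. T, and 164 to 634 and 95 to 470 in A + T vs. S. Without animals 12 and 22, 16 members were higher and 4 lower in T vs. S, 6 lower in A + T vs. T, and 4 higher and 3 lower in A + T vs. S. Of all genes, 1786 were then higher and 1745 lower in T vs. S, 437 and 438 in A + T vs. T, and 679 and 580 in A + T vs. S. Of the members called with all animals, 15, 4 and 4 were called again, and Atg14 and Atg5 in T vs. S and Gabarapl2 in A + T vs. S were not. No paired analysis was possible because the groups share no animal numbers.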
